A study of Mus musculus with 12 samples.

Results

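TOM positive cells of the hypothalamus were compared with TOM negative cells of the same tissue across all genes, with neuronal, oligodendroglial and microglial content described apart. All 6 libraries came from untreated mice of the genotype Mc4r-Cre; Ai14 at 4 weeks of age. There were 3 libraries of TOM positive and 3 of TOM negative cells, 6 of the 12 libraries in the series, taken by their labels and column names. The other 6 libraries, of another genotype, age and region, were not compared here.

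Mc4r encodes the melanocortin 4 receptor, a receptor coupled to the stimulatory G protein and thus to cyclic AMP, through which melanocortin peptides restrain feeding. Ai14 is a reporter allele that makes the red protein tdTomato (TOM) once Cre has removed a stop sequence, and a cell and its descendants then keep the reporter whether or not Mc4r is still used. The labels name no further marker for the TOM negative gate, which can therefore hold any hypothalamic cell without visible reporter. Oligodendrocytes wrap axons in myelin, a lipid-rich membrane, and microglia are the resident macrophages of the brain, with a strong lysosomal and innate immune repertoire. Nothing in the labels ties a library to an animal or a pool of animals, so the p-values below rest on variation between libraries that could be technical.

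The TOM positive libraries held 17727134, 26693043 and 27827853 counts and the TOM negative libraries 22379648, 23002571 and 22956506 counts. Of 55809 gene symbols, 15228 passed the filter on low counts and were tested with edgeR's quasi-likelihood test. In the fit of all 6 libraries, 1589 genes (10.4%) were higher in TOM positive cells and 2045 (13.4%) lower at an adjusted p under 0.05. This split turned to 2203 higher and 1532 lower when library totals were used without scaling factors, which moved the median of all genes by 0.26 on the log2 scale, so small differences in either direction depend on the scaling. Because leaving out TOM negative replicate 2 took the total from 3634 to 1892, a gene is called higher or lower below only when it passed with 1 sign both in the 6-library fit and in every one of the 6 refits that each drop a library. By that rule 671 genes (4.41% of those tested) were higher and 1112 (7.3%) lower, 11.7% in either direction. Without scaling factors the same rule gave 1025 higher and 893 lower. Every called gene had groups that did not overlap, as did 46.4% of all genes tested. Levels are given as counts scaled to a common library size (CPM) for replicates 1, 2 and 3 in that order, and differences as log2 fold change ± SE, positive where TOM positive cells were higher. A signed number beside a gene or a list is its log2 fold change or the median of its members.

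The target gene of the Cre line was barely sampled. Mc4r had 63, 0 and 0 counts in TOM positive libraries and 0 in every TOM negative library, so 1 of 3 TOM positive libraries held all of its counts. The symbols for tdTomato and Cre are not rows of the table, so the sort could not be checked on the reporter.

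Markers of 3 cell types separated the sorts, and the neuronal markers were not the most abundant of them. The 20 oligodendrocyte core genes took 11.5, 10.3 and 11.6% of counts in TOM positive and 3.10, 2.45 and 2.88% in TOM negative libraries. The 24 neuron core genes took 0.138, 0.0915 and 0.0861% of counts in TOM positive and 0.0275, 0.0232 and 0.0214% in TOM negative libraries. The 22 microglia core genes took 0.0971, 0.0750 and 0.159% of counts in TOM positive and 3.94, 4.04 and 3.54% in TOM negative libraries. In each case the groups did not overlap, and the exact two-sided permutation test gave p = 0.1, the smallest that 3 against 3 libraries allow. Of all genes tested, 46.4% also had groups that did not overlap. Per kilobase of exon, the mean level of the oligodendrocyte core genes went from 386 CPM in the TOM negative sort to 1119 CPM in the TOM positive one. The same pair of levels was 4.29 and 12.9 CPM for the neuron core, and 954 and 22.5 CPM for the microglia core. TOM positive libraries were thus richer in neuronal and in oligodendroglial transcripts together, with no TOM negative library reaching either share. In bulk libraries such as these, fewer cells of a type and less RNA per cell cannot be told apart.

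**Figure D1:**
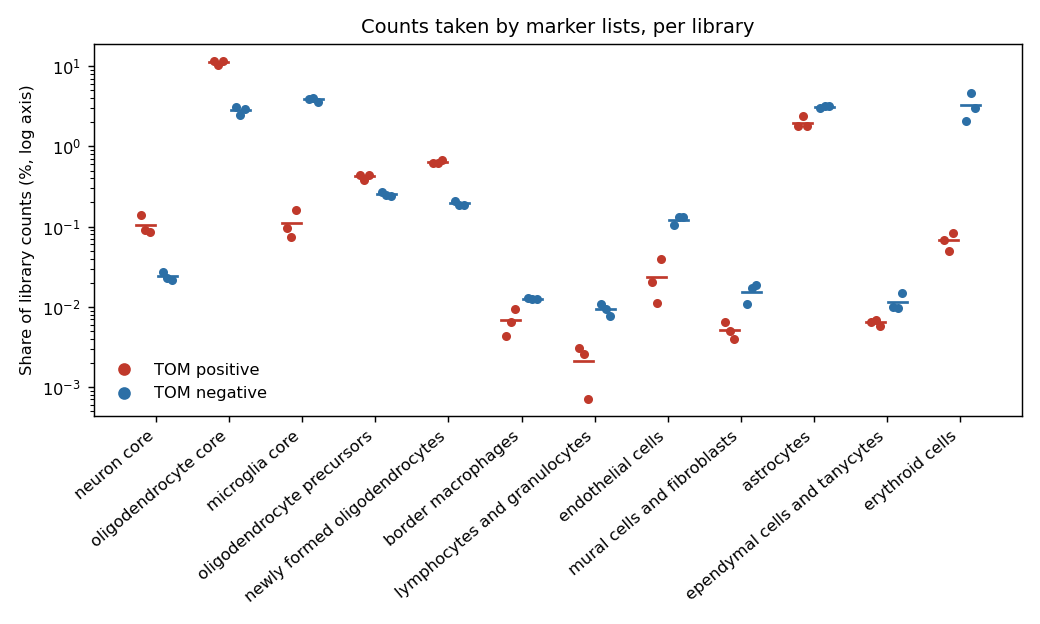
Share of each library's counts taken by 12 lists of cell type markers (percent, log axis), with 1 point per library and a line at the mean of 3. Oligodendrocyte core and neuron core shares were higher in all 3 TOM positive libraries, and microglia core and erythroid shares were higher in all 3 TOM negative libraries.

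Most neuronal markers had positive fold changes but were not called. Of 23 neuron core genes tested, 4 were called higher against 9 in the 6-library fit, although 22 lay above 0 and the median log2 fold change was 2.54. The median coefficient of variation of these genes was 68.5% between TOM negative libraries and 20.9% between TOM positive ones, whereas all genes tested had 28.9% and 33.8%. Single neuron core genes in the TOM negative sort thus varied more between libraries than their summed share given above. Over all 13 neuronal lists, 49 of 361 genes tested (13.6%) were called higher and 18 (4.99%) lower. All genes tested had 4.41% and 7.3%. Most of the lower calls stood in the cyclic AMP, calcium and insulin, leptin and mTOR signalling lists described below.

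Among transmitter receptors, Gria2, Gria4, Glrb and Grm7 were called higher. Gria2, the subunit that sets calcium permeability of AMPA receptors, stood at 98.7, 85.7 and 112 CPM in TOM positive against 11.6, 16.2 and 29.4 CPM in TOM negative libraries (log2 fold change 2.37 ± 0.36, edgeR adjusted p = 0.00473). Gria4, another AMPA subunit, gave 2.49 ± 0.44. The 2 were the only calls among 17 ionotropic glutamate receptor genes tested, whose median was 0.55. Of 10 GABA-A and glycine receptor genes, Glrb, the beta subunit that anchors glycine receptors at synapses, was the 1 called, at 373, 286 and 318 CPM in TOM positive against 67.7, 58.3 and 75.7 CPM in TOM negative libraries (log2 fold change 2.28 ± 0.18, edgeR adjusted p = 0.000354). Grm7, a presynaptic metabotropic glutamate receptor, was higher by 3.03 ± 0.54. The oligodendrocyte core share was higher in the same TOM positive libraries, and which cells gave these receptor counts was not tested.

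Synaptic scaffolds and adhesion molecules had mostly positive values. Ptprd, a receptor phosphatase that organizes synapses, stood at 319, 249 and 309 CPM in TOM positive against 27.2, 21.7 and 46.5 CPM in TOM negative libraries (log2 fold change 3.20 ± 0.31, edgeR adjusted p = 0.000798). It was the 1 gene called higher of 43 synaptic adhesion genes, of which 10 passed in the 6-library fit. That 1 call is a smaller share than the 4.41% of all genes tested that were called higher. The adhesion gene Lrfn4 was lower at -1.78, a call that was lost without scaling factors. Of 28 postsynaptic genes, 3 were called higher: Anks1b at 2.30 ± 0.18, Dlg1 (SAP97) at 2.48 ± 0.37 and the calmodulin-binding Nrgn at 2.69 ± 0.56. The last was not called with RLE size factors. The adhesion list's median of 0.89 became 0.34 after the adjustment for exon length described below. That of the postsynaptic list went from 1.46 to 0.95. Whether neurons or oligodendrocytes gave the counts of these scaffold and adhesion genes was not tested.

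Microtubule genes made up the largest block of neuronal calls. Of 42 cytoskeletal and motor genes, 13 were called higher and 2 lower. Map1b, a microtubule-associated protein of growing axons (chromosome 13, 99557954 to 99653048, minus strand in GENCODE vM30), stood at 409, 303 and 336 CPM in TOM positive against 22.2, 33.7 and 25.2 CPM in TOM negative libraries (log2 fold change 3.69 ± 0.23, edgeR adjusted p = 0.000145). Its TOM positive values were all far above the highest TOM negative one. Kif5c, a kinesin-1 heavy chain found mostly in neurons, was at 98.4, 100.3 and 87.6 CPM in TOM positive against 5.42, 7.39 and 15.4 CPM in TOM negative libraries (log2 fold change 3.34 ± 0.41, edgeR adjusted p = 0.00199), and its broadly expressed relative Kif5b was higher by 2.40 ± 0.33. Map1a was higher by 1.71 ± 0.21 and Dpysl2 (CRMP2) by 1.23 ± 0.15. The tubulins Tubb2a (-1.05) and Tuba4a (-1.02) were lower, and the call on Tuba4a was lost without scaling factors. Oligodendrocytes also use several of these genes, and which cells gave the counts was not tested.

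Of 67 genes of cyclic AMP and G protein signalling tested, 8 were called higher and 5 lower, with a median of 0.51. Over all genes tested 4.41% were higher and 7.3% lower, so the list's share of lower calls was near that of all genes. Gng4, a G protein gamma subunit, was higher at 63.8, 50.8 and 53.8 CPM in TOM positive against 9.14, 5.51 and 5.67 CPM in TOM negative libraries (log2 fold change 3.05 ± 0.32, edgeR adjusted p = 0.000992), and Akap9, a scaffold for protein kinase A, was higher by 2.32 ± 0.38. On the other side, Rgs10, a GTPase activator abundant in microglia, stood at 17.0, 9.80 and 14.9 CPM in TOM positive against 376, 352 and 256 CPM in TOM negative libraries (log2 fold change -4.56 ± 0.29, edgeR adjusted p = 0.000152). Rgs2 was lower at -4.46 and Gnai2 at -1.16. The microglia core share moved with these lower genes, and its part in them was not tested.

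Of 43 calcium signalling genes, 6 were called higher and 5 lower. Over all genes tested 4.41% were higher and 7.3% lower. The neuronal calcium sensor Hpcal4 was higher by 3.17 ± 0.31 and the calcineurin catalytic subunit Ppp3ca by 1.51 ± 0.24. Rcan1, an inhibitor of calcineurin, was at 48.3, 50.3 and 58.6 CPM in TOM positive against 499, 376 and 331 CPM in TOM negative libraries (log2 fold change -2.94 ± 0.21, edgeR adjusted p = 0.000221), while its relative Rcan2 was higher by 1.70 ± 0.21. Orai1, the pore of the store-operated calcium channel of immune cells, was lower at -2.35. Among 22 pumps and exchangers, 3 were called higher and 1 lower. The higher ones included the chloride importer Slc12a2 (2.49) and the sodium-calcium exchanger Slc24a2 (2.41).

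Genes of insulin, leptin and mTOR signalling, the pathways through which body energy stores act on hypothalamic neurons, had 5 members called higher and 4 lower of 35. All genes tested had 4.41% higher and 7.3% lower. Socs3, which shuts off leptin and cytokine receptors, stood at 9.53, 6.50 and 10.1 CPM in TOM positive against 176, 189.8 and 241 CPM in TOM negative libraries (log2 fold change -4.54 ± 0.26, edgeR adjusted p = 0.00011). Ptpn1, a phosphatase that acts on the insulin receptor and on the leptin receptor's kinase, was lower at -2.26, and Akt1 at -1.15. Higher were the mTORC2 subunit Rictor (2.53), the S6 kinase gene Rps6kb1 (2.08) and the PI3-kinase catalytic subunit Pik3ca (1.93). The cytokine genes described below were lower in the same libraries as Socs3, and their relation was not tested.

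Hypothalamic peptide genes that passed the filter on low counts had edgeR adjusted p from 0.1 to 0.987. The genes named here were chosen after their values were seen, as the extremes and as further examples. Pmch, the melanin-concentrating hormone precursor of the lateral hypothalamus, had 1184, 35 and 92 counts in TOM positive and 26, 29 and 46 counts in TOM negative libraries (edgeR adjusted p = 0.1). Hcrt, the orexin precursor, had 23, 29 and 24 counts in TOM positive and 265, 22 and 63 counts in TOM negative libraries (adjusted p = 0.13). Avp, the vasopressin precursor, had 5, 238 and 36 against 24, 144 and 25 counts (adjusted p = 0.987). A single library held most of the Pmch and Hcrt counts of its sort. The melanocortin precursor Pomc had 29, 44 and 36 against 65, 43 and 54 counts (-0.90, adjusted p = 0.427). Npy had 33, 25 and 51 against 59, 79 and 42 counts (-1.04, adjusted p = 0.388). Trh (2.34, adjusted p = 0.151) and Cartpt (2.55, adjusted p = 0.21) had positive fold changes and were not called either. At counts this low, a large adjusted p does not show equal levels. Slc17a6, the vesicular glutamate transporter of hypothalamic neurons, was called higher, with 132, 126 and 129 against 0, 0 and 1 counts. The GABA synthesis genes Gad1 (2.23, edgeR adjusted p = 0.0685) and Gad2 (2.80, adjusted p = 0.171) also had positive fold changes but were not called.

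Calls were more frequent among oligodendrocyte markers, and their libraries varied less. Of 20 core genes, 12 were called higher, and 17 in the 6-library fit, with a median of 1.32 and a median coefficient of variation of 9.64% between TOM positive libraries. Ermn, a cytoskeletal protein of late myelin (chromosome 2, 57935125 to 57942876, minus strand in GENCODE vM30), was at 1025, 819.9 and 1002 CPM in TOM positive against 104, 108 and 149 CPM in TOM negative libraries (log2 fold change 2.98 ± 0.20, edgeR adjusted p = 0.000185). Mobp, a structural protein of compact myelin, was higher by 1.76 ± 0.14. Across all 8 oligodendroglial lists, 55 of 165 genes tested (33.3%) were called higher and 1 (0.606%) lower, against 4.41% and 7.3% of all genes.

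Lists for the stages of the lineage gave different medians. Of 17 genes of newly formed oligodendrocytes, 9 were higher, with a median of 1.48. Bcas1, a marker of early myelination, was at 358, 299 and 282 CPM in TOM positive against 86.9, 69.9 and 87.6 CPM in TOM negative libraries (log2 fold change 1.94 ± 0.17, edgeR adjusted p = 0.000521). Of 17 precursor genes, 3 were higher: Tnr at 3.00 ± 0.26, Lhfpl3 at 1.74 ± 0.27 and Sox10 at 1.21 ± 0.20, the last being used throughout the lineage. The precursor gene Cspg5, which astrocytes and neurons also use, was lower at -0.90, and that call was lost without scaling factors. The precursor list had a median of 0.68. Of 18 genes in the list for transcription factors of the lineage, 7 were higher. Among them were Zfp536 (3.21), the zinc finger factor St18 (2.89) and the zinc finger gene Zfp365 (2.56).

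Lipid synthesis, which feeds the myelin membrane, gave calls at single genes and medians of 0.36 and 0.48 for its lists. Of 25 cholesterol synthesis genes, 4 were called higher. Idi1 stood at 81.5, 65.8 and 78.3 CPM in TOM positive against 12.6, 16.2 and 19.4 CPM in TOM negative libraries (log2 fold change 2.23 ± 0.25, edgeR adjusted p = 0.00139), and Hmgcs1, which commits acetyl units to the pathway, was higher by 1.99 ± 0.24. Of 28 myelin lipid genes, 7 were higher. The fatty acid elongase Elovl6 was at 193, 178 and 196 CPM in TOM positive against 21.7, 20.2 and 23.1 CPM in TOM negative libraries (log2 fold change 3.12 ± 0.16, edgeR adjusted p = 9.36e-05), Elovl7 was higher by 2.14 ± 0.18, and Fa2h, which hydroxylates the fatty acids of myelin galactolipids, by 1.52 ± 0.18.

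Genes of axon-glia contact had a larger median than the lipid genes. Of 23 genes of the node of Ranvier and the axoglial junction, 9 were called higher, with a median of 1.83. Epb41l3, a membrane skeleton protein of the paranode, was at 462, 369 and 506 CPM in TOM positive against 114, 83.7 and 107 CPM in TOM negative libraries (log2 fold change 2.13 ± 0.19, edgeR adjusted p = 0.000566). Cntn1, the axonal partner at the paranode that oligodendrocytes also make, was higher by 2.12 ± 0.22. Both neurons and oligodendrocytes supply this junction, and their parts were not tested. Of 30 oligodendrocyte cytoskeletal and adhesion genes, 11 were higher, among them Septin7 (2.51), the lysophosphatidic acid receptor Lpar1 (2.46) and the protease Adamts4 (2.07). The connexin Gjc3, an oligodendrocyte gap junction gene, was higher by 2.75 ± 0.23.

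**Figure D2:**
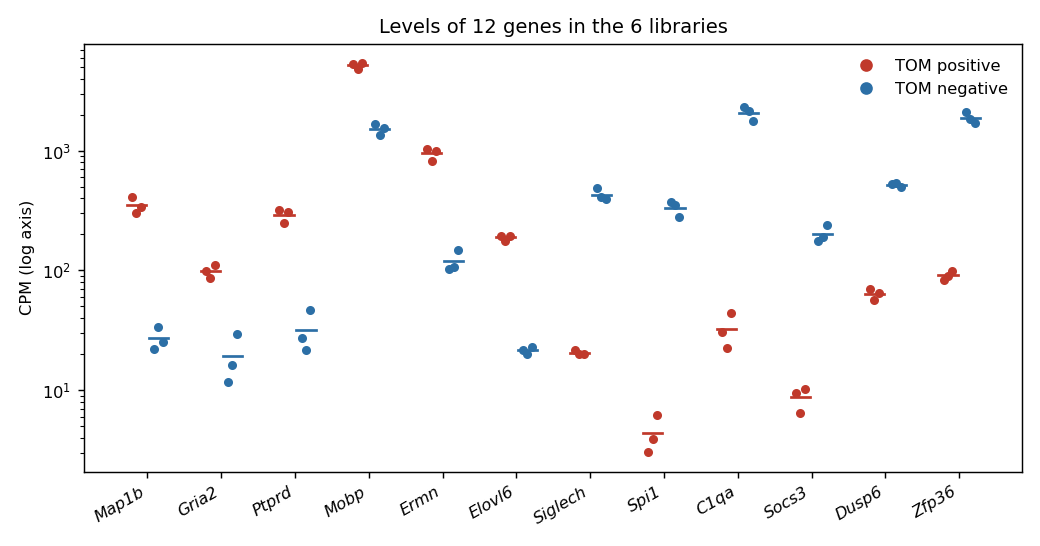
CPM of 12 named genes in each library (log axis), with 1 point per library and a line at the mean of 3. Map1b, Gria2, Ptprd, Mobp, Ermn and Elovl6 were higher and Siglech, Spi1, C1qa, Socs3, Dusp6 and Zfp36 lower in all 3 TOM positive libraries. All 12 were chosen among called genes, every one of which had groups that did not overlap. The same held for 46.4% of all genes tested.

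Microglial genes were lower in TOM positive cells as a block. Of 22 microglia core genes tested, 21 were called lower and the median was -5.35. Siglech, a lectin of microglia, stood at 21.8, 20.1 and 19.9 CPM in TOM positive against 486, 409.7 and 394 CPM in TOM negative libraries (log2 fold change -4.38 ± 0.17, edgeR adjusted p = 5.66e-05). Slc2a5, the fructose transporter used as a microglial marker, was at 6.86, 10.2 and 7.37 CPM in TOM positive against 383, 495 and 381 CPM in TOM negative libraries (log2 fold change -5.68 ± 0.25, edgeR adjusted p = 6.07e-05). Every TOM positive library still held counts for all 22 of these genes. Across the 15 myeloid lists, 146 of 350 genes tested (41.7%) were called lower and 2 (0.571%) higher, against 7.3% and 4.41% of all genes.

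The promoters of microglial genes are known for sites of ETS factors such as the one encoded by Spi1, so 4 are shown. RefSeq promoter entries (GRCm38.p6, another build than GENCODE vM30) matched 11044 of the 15228 genes tested and 15 of the 22 microglia core genes. The 4 core genes whose 250 bases before the start held the ETS-type letters AGGAAGT, or their reverse complement ACTTCCT, are printed 5′ to 3′ on the gene's strand with those letters in capitals. They are C1qb (chr4:136886201-136886450, minus strand), C1qc (chr4:136892915-136893164, minus strand), P2ry12 (chr3:59262986-59263235, minus strand) and Fcrls (chr3:87263525-87263774, minus strand).
C1qb: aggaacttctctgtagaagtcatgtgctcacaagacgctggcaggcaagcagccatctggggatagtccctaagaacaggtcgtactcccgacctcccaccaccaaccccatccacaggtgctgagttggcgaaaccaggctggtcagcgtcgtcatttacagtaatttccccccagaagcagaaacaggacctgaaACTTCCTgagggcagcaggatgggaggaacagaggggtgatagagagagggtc
C1qc: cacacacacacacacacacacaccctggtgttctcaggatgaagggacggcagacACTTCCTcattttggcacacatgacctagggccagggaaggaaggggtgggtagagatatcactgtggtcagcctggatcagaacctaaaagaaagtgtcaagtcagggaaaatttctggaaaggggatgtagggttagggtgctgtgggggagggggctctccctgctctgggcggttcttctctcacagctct
P2ry12: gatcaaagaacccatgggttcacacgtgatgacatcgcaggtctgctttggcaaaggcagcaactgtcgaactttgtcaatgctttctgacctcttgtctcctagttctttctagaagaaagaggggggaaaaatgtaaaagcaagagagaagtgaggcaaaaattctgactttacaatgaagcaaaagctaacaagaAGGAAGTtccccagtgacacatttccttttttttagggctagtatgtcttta
Fcrls: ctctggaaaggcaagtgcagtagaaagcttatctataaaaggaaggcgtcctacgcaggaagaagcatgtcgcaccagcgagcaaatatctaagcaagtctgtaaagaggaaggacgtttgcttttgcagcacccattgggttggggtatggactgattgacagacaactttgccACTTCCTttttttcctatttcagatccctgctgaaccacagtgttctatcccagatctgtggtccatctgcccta
In C1qb the capitals begin 53 bases before the start and in P2ry12 52 bases before it, against 75 in Fcrls and 195 in C1qc. These letters stood on either strand in 26.7% of the 15 microglia core promoters, in 18.2% of 110 promoters of myeloid list genes called lower and in 11.1% of 820 promoters of all genes called lower. All 27025 promoters of the same length held them in 7.80%, and the 507 promoters of genes called higher in 8.09%. The cyclic AMP element letters TGACGTC on either strand stood in 8.48% of promoters of genes called higher, in 3.41% of those called lower and in 4.74% of all promoters of genes tested. Of all 27025 promoters, 2.88% held them. Another ETS-type string of the same length, GAGGAAG, stood in 33.3% of microglia core, 18.8% of neuron core and 18.8% of oligodendrocyte core promoters, against 10.4% of all promoters. The RE1 core letters CAGCACC stood in 20% of microglia core and 18.8% of neuron core promoters, against 5.70% of all. Of 9 strings counted these 4 are given, the core sets hold only 15 or 16 promoters each, and a match describes letters and not a bound site.

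Transcription factors that specify myeloid cells were lower with the markers. Of 24 such genes, 11 were called lower. Spi1, encoding PU.1 (chromosome 2, 90912735 to 90946101, plus strand in GENCODE vM30), stood at 3.02, 3.91 and 6.21 CPM in TOM positive against 373, 353 and 278 CPM in TOM negative libraries (log2 fold change -6.24 ± 0.34, edgeR adjusted p = 9.58e-05). The interferon regulatory factors Irf8 (-5.12) and Irf5 (-4.89) were lower too. The first complement component was represented by C1qa at 30.5, 22.3 and 44.3 CPM in TOM positive against 2329, 2159 and 1764 CPM in TOM negative libraries (log2 fold change -6.01 ± 0.31, edgeR adjusted p = 9.36e-05), with C1qb at -5.67 and C1qc at -5.59. Those were 3 of the 5 called lower among 21 complement genes, whose median of -1.61 was nearer 0 than that of the microglia core.

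Receptors that signal through ITAM motifs, the tyrosine-based activation motifs of immune receptors, gave 22 lower genes of 40 and a median of -4.89. The adaptor Fcer1g stood at 15.1, 11.3 and 17.1 CPM in TOM positive against 559, 513 and 391 CPM in TOM negative libraries (log2 fold change -5.07 ± 0.25, edgeR adjusted p = 7.67e-05). The high-affinity IgG receptor Fcgr1 was lower at -4.88. Of 29 Toll-like receptor and inflammasome genes, 10 were lower, including Unc93b1, the chaperone of endosomal Toll-like receptors (-4.59), and Tlr2 (-2.09).

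Cytokines, chemokines and the feedback genes of NF-kB had 22 of 39 members lower and a median of -4.51. Zfp36, which destabilizes cytokine mRNAs, stood at 82.8, 89.9 and 99.7 CPM in TOM positive against 2113, 1839 and 1718 CPM in TOM negative libraries (log2 fold change -4.38 ± 0.16, edgeR adjusted p = 5.66e-05). The interleukin 10 receptor gene Il10ra was lower at -6.08 and Nfkbid at -5.56. Of 18 purinergic genes, 9 were lower, among them the microglial receptors P2ry13 (-5.41), P2ry6 (-4.55) and P2ry12 (-3.94).

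Of 52 genes for lysosomal hydrolases, membrane proteins and their partners, 29 were called lower, and they took 1.69% of TOM positive against 6.68% of TOM negative counts. The protease Ctsd stood at 496, 494 and 584 CPM in TOM positive against 7769, 7797 and 6392 CPM in TOM negative libraries (log2 fold change -3.80 ± 0.16, edgeR adjusted p = 5.66e-05). The progranulin gene Grn was lower at -3.35. The vacuolar ATPase, the proton pump that acidifies the same organelle, had a median of 0.01 over 18 genes, or -0.01 with RLE size factors. Its subunits Atp6v1a (1.00) and Atp6v1g2 (1.85), the latter a neuronal form, were the 2 genes called higher in the myeloid lists. Atp6v0e was lower at -1.13, a call lost without scaling factors. Of 26 phagocytosis and NADPH oxidase genes 11 were lower, with Cyba, a subunit of the oxidase, at -4.83. Of 24 integrin genes 3 were lower, and the list's leukocyte adaptor Fermt3 stood at -5.47.

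Of 14 genes of macrophages at the brain borders, 2 were called lower, a larger share than the 7.3% of all genes tested. The list's median of -0.04 became 0.22 without scaling factors. The list took 0.00438, 0.00642 and 0.00947% of counts in TOM positive and 0.0129, 0.0124 and 0.0126% in TOM negative libraries. Lymphocyte and granulocyte genes had 6 of 15 members lower, and 14 of the 15 had a TOM positive library at 0 counts. The fitted median was -6.87. With only the genes at 0 counts in a whole sort set at their lower bounds against 3 counts, it was -5.60.

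**Figure D3:**
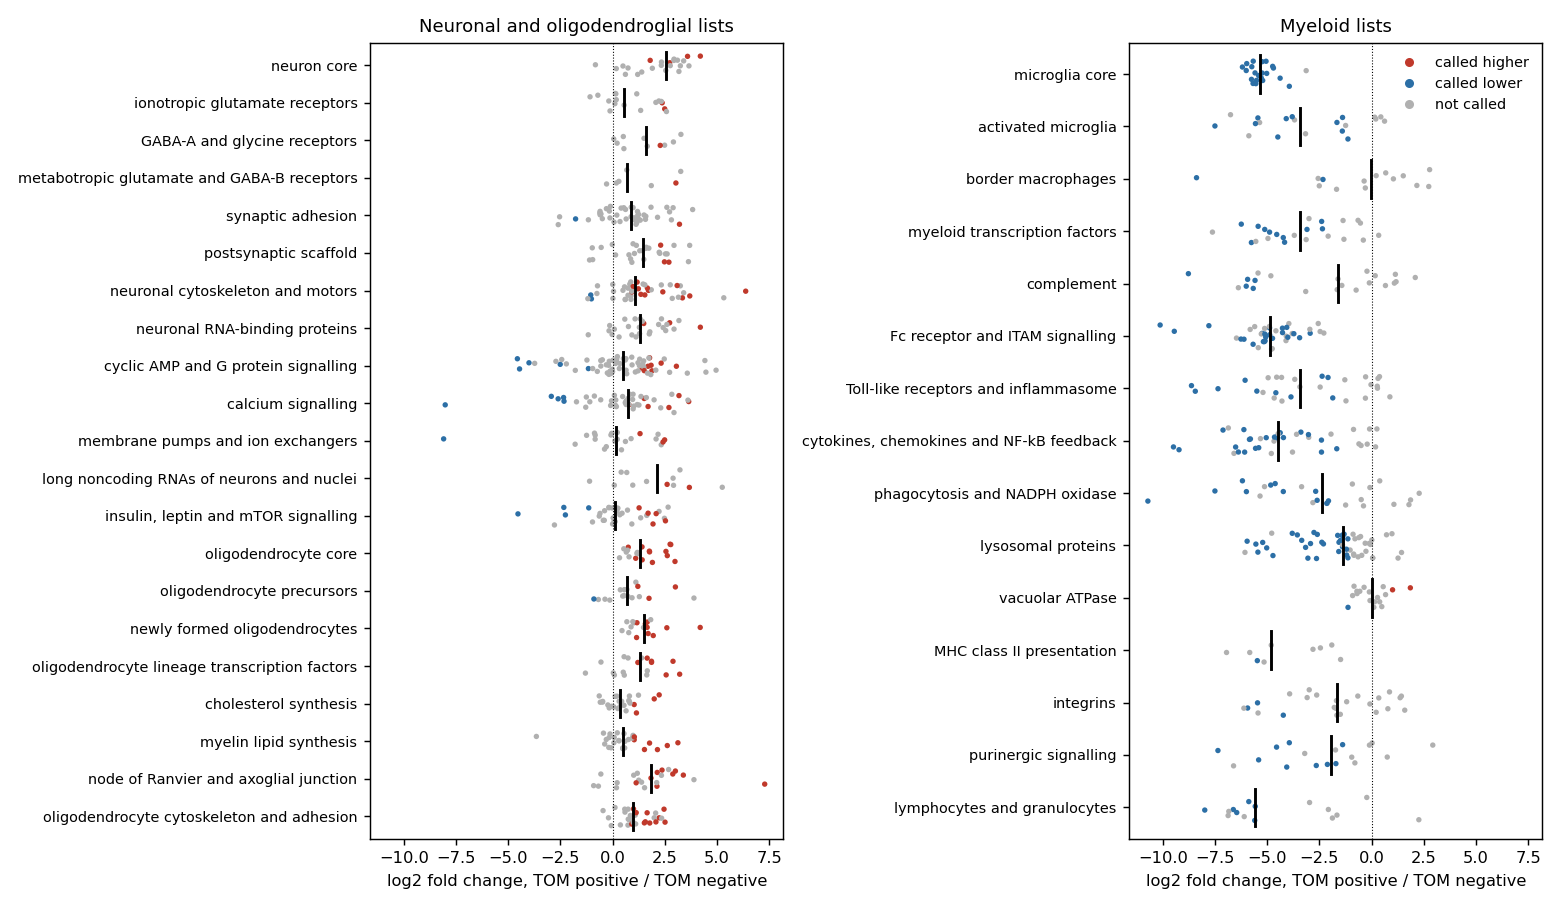
Log2 fold change of every tested member (points) of 21 neuronal and oligodendroglial lists on the left and 15 myeloid lists on the right, with the median as a bar and genes called higher or lower in red or blue. Genes with 0 counts in a whole group are drawn at their lower bound. As fitted, medians on the left all lay above 0, of which the insulin, leptin and mTOR list and the pump list fell below 0 after adjustment for exon length, and most on the right lay below 0, with the vacuolar ATPase and border macrophage lists near 0.

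Lists for the 5 other kinds of cell all had medians below 0. Erythroid genes took 0.0684, 0.0499 and 0.0836% of counts in TOM positive and 2.05, 4.67 and 3.01% in TOM negative libraries, and 7 of 8 were called lower. Hba-a1, whose counts are uncertain because of a near-identical copy, was among them at -6.79. Blood RNA thus differed between the sorts along with every comparison above, and its part was not tested. Of 18 astrocyte genes 3 were lower, with Agt, the angiotensin precursor, at 2383, 3913 and 3211 CPM in TOM positive against 10601, 10713 and 8890.2 CPM in TOM negative libraries (log2 fold change -1.67 ± 0.20, edgeR adjusted p = 0.00184). Astrocyte markers still took 1.77, 2.38 and 1.79% of counts in TOM positive and 3.01, 3.14 and 3.15% in TOM negative libraries. Of 17 endothelial genes 2 were lower against 6 in the 6-library fit, and neither call remained without scaling factors. Of 12 ependymal and tanycyte genes 1, Rarres2, was lower, at -1.81. Of all genes tested 7.3% were lower, so that share was near that of all genes.

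Calls also varied with gene length, which bears on every pathway of short or long genes. Genes were put in 5 groups of equal size by summed exon length. In the shortest group 1.12% were called higher and 9.28% lower, and in the longest group 8.54% were higher and 2.53% lower. The median log2 fold change went from -0.41 to 0.64 between these groups. The median exon length was 6021 bases for genes called higher, 3033 for genes called lower and 4105 for all tested. The neuron core genes had a median exon length of 5387 bases, the oligodendrocyte core genes 3637 and the microglia core genes 2537. List medians are therefore also given after subtracting, from each gene, the median of its length group, an alternative added after seeing the data. The neuron core then had 2.30, the oligodendrocyte core 1.58 and the microglia core -5.12. Medians turned sign in the insulin, leptin and mTOR list, from 0.12 to -0.30, and in the pump and exchanger list, from 0.16 to -0.32. The border macrophage list went from -0.04 to 0.34.

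Mitochondrially encoded genes were higher, while nuclear subunits of the respiratory chain gave hardly any calls. Of 10 mitochondrially encoded genes tested, 6 were called higher, with a median of 1.75 and of 2.15 after the length adjustment. mt-Nd5, a complex I subunit, stood at 423, 413 and 265 CPM in TOM positive against 61.0, 66.2 and 76.7 CPM in TOM negative libraries (log2 fold change 2.43 ± 0.22, edgeR adjusted p = 0.000617). These genes took 0.564% of TOM positive and 0.174% of TOM negative counts. Of 76 nuclear subunits of the respiratory chain, 1 was called lower, Ndufs8, and that call was lost without scaling factors. Their median of -0.38 became -0.11 without scaling factors and -0.05 after the length adjustment.

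In glycolysis and monocarboxylate transport, 10 of 31 genes were lower, or 6 without scaling factors, and 1 higher. The glucose transporter Slc2a1, used by endothelium and glia, was at 255, 269.7 and 353 CPM in TOM positive against 703, 938 and 752 CPM in TOM negative libraries (log2 fold change -1.45 ± 0.19, edgeR adjusted p = 0.00238). Pdha1, which links glycolysis to the tricarboxylic acid cycle, was higher by 1.27 ± 0.27, a call lost with RLE size factors. Within the cycle, Dld (1.29) and Sucla2 (1.42) were higher. The 28 genes of the cycle had a median of -0.22, and 0.04 without scaling factors.

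RNA processing and protein turnover differed at named genes. Of 37 hnRNP and SR splicing genes 11 were higher and 2 lower, with a median of 0.64, or 0.28 after the length adjustment. Srsf5 was at 455, 693 and 514 CPM in TOM positive against 169, 143 and 136 CPM in TOM negative libraries (log2 fold change 1.89 ± 0.20, edgeR adjusted p = 0.00104). The neuronal splicing regulator Ptbp2 was higher by 1.49 ± 0.29, whereas its relative Ptbp1, which neurons switch off as they mature, was lower at -1.52, a call lost without scaling factors. The nuclear long noncoding RNAs Malat1 (2.61) and Kcnq1ot1 (3.67) were higher. Of 39 proteasome genes, the immunoproteasome subunit Psmb10 (-2.59) and the interferon-induced activator Psme1 (-2.15) were among 4 called lower, and the base subunit Psmc6 was higher by 1.34 ± 0.19. The list's median was -0.26 and became 0.01 without scaling factors. Of 49 ubiquitin and SUMO genes 5 were higher, such as Ube2v2 (2.16), and 1 was lower. Of 41 translation factors 2 were higher, near the 4.41% of all genes tested, and 2 lower, a smaller share than the 7.3% of all. Among the lower was the kinase of elongation factor 2, Eef2k, at -2.55.

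Signalling pathways shared by many cell types gave calls at single genes. Of 28 MAPK genes 5 were lower and 2 higher. Dusp6, a phosphatase of ERK, stood at 70.4, 56.9 and 64.2 CPM in TOM positive against 523, 538 and 499.6 CPM in TOM negative libraries (log2 fold change -3.03 ± 0.15, edgeR adjusted p = 7.76e-05), and Dusp1 was lower at -3.89. The kinase gene Braf was higher by 2.87 ± 0.55. Of 31 Notch genes 6 were lower with a median of -1.09, including Lfng, which modifies Notch receptors (-2.02), and Numb (-2.47). Of 40 TGF-beta and BMP genes 5 were lower: the ligand Tgfb1 stood at 3.02, 1.97 and 2.62 CPM in TOM positive against 34.4, 68.3 and 72.7 CPM in TOM negative libraries (log2 fold change -4.53 ± 0.41, edgeR adjusted p = 0.000588), and Nrros, which holds latent TGF-beta on microglia, was lower at -3.35.

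Of 39 Wnt genes 3 were higher and 4 lower. Tcf7l2, a Wnt effector of the oligodendrocyte lineage, was higher by 1.65 ± 0.22 and Apc by 2.69 ± 0.33, while the receptor Fzd9 (-2.68) and the ligand Wnt7b (-1.73) were lower. The list's median of -0.09 was 0.17 without scaling factors. Of 41 antioxidant genes 6 were lower, with the glutathione peroxidase Gpx1 at 17.8, 25.6 and 19.7 CPM in TOM positive against 204, 245 and 157 CPM in TOM negative libraries (log2 fold change -3.26 ± 0.25, edgeR adjusted p = 0.000304). Of 23 iron genes 4 were lower, including the ferritin light chain Ftl1 (-1.91) and Hfe (-4.34). Among 19 glucocorticoid response genes 5 were lower, such as Fkbp5 (-2.20), and Klf9 was higher by 1.06 ± 0.17. Across the 20 lists of pathways shared by cell types, 37 of 643 genes tested (5.75%) were higher and 58 (9.02%) lower, near the 4.41% and 7.3% of all genes tested. The microglia core share was lower in the same TOM positive libraries, and its part in these pathways was not tested.

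**Figure D4:**
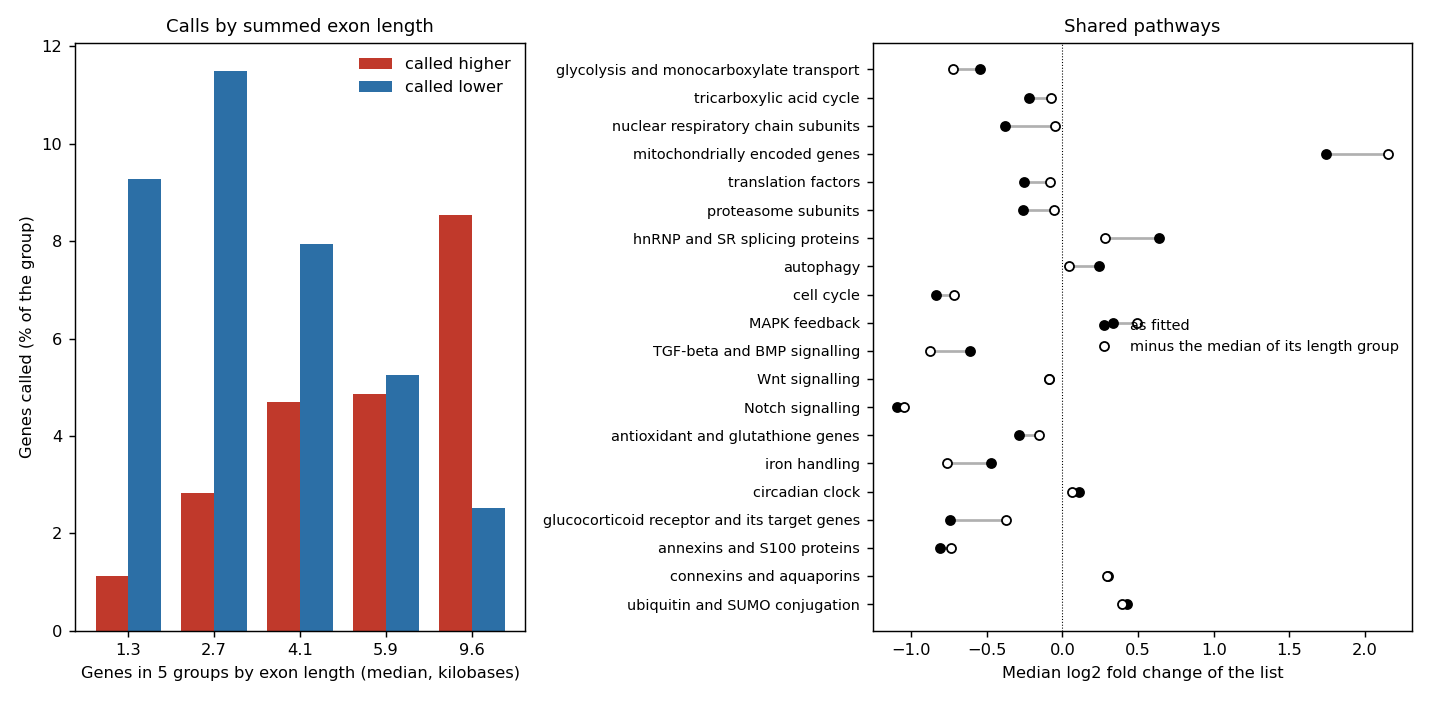
Left, the percent of genes called higher and lower in 5 groups by summed exon length, from the shortest to the longest. Right, the median log2 fold change of 20 lists of shared pathways as fitted (filled) and after subtracting the median of each gene's length group (open). Calls went from mostly lower in the shortest group to mostly higher in the longest, and the nuclear respiratory chain moved from -0.38 to -0.05 while mitochondrially encoded genes stayed above 0.

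Most called genes stood in no list, as did most genes tested. Of 13662 tested genes outside all lists, 530 (3.88%) were higher and 875 (6.40%) lower. Both shares were below the 4.41% and 7.3% of all genes tested. The 10 largest in the positive direction, by the rule that asks for 10 CPM on average, included the synaptotagmin gene Syt4 at 27.1, 20.2 and 11.4 CPM in TOM positive against 1.36, 1.16 and 0.732 CPM in TOM negative libraries (log2 fold change 4.17 ± 0.58, edgeR adjusted p = 0.00311) and the zinc finger gene Zfp101 at 28.1, 10.2 and 15.9 CPM in TOM positive against 1.31, 0.145 and 1.14 CPM in TOM negative libraries (log2 fold change 4.38 ± 0.90, edgeR adjusted p = 0.0131). Also among them were the kinase gene Pak3 (4.06), the LGI1 receptor gene Adam22 (3.69) and Rab39b (3.64). On the lower side, the immune checkpoint gene Vsir stood at 21.7, 22.5 and 26.5 CPM in TOM positive against 957, 1177 and 952 CPM in TOM negative libraries (log2 fold change -5.45 ± 0.18, edgeR adjusted p = 5.66e-05). The macrophage receptor gene Adgre1 (F4/80) was lower at -5.29 and the crystallin gene Crybb1 at -5.60.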

How the data were processed

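RNA of sorted hypothalamic cells was sequenced in 3 TOM positive and 3 TOM negative libraries, made with a SMART-Seq low-input kit per the labels' protocols, which describe no molecular identifiers. PCR copies are thus counted as reads, and lower bounds cover counting error only. The deposited values are raw whole-number counts for each gene symbol. The authors used, per the submitters' processing notes, FastQC, Trim Galore, STAR, featureCounts and the mm10 build. How the TOM libraries were counted is not given in the sources used here. Positions and exon lengths come from the headers of the series' other count files, which name GENCODE vM30, a later assembly. No strand setting is known for these counts, so antisense partners and near-identical copies are uncertain.

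Library totals ran from 17727134 to 27827853 counts. Counts were fitted in R 4.3.3 with edgeR 4.0.16 (TMM scaling, filterByExpr with a minimum count of 10, quasi-likelihood test, two-sided, Benjamini-Hochberg over all genes tested, threshold 0.05). SEs were derived from the F statistic. Tests of list shares were exact permutation tests over libraries. No set test was run. No pair of libraries within a sort agreed within sampling noise. The steps were tested on simulated data.

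The members and the 61 gene lists were chosen with earlier results of these data known. Named genes are, per list and direction, the 3 (neuronal, oligodendroglial and myeloid lists) or 2 (other lists) with the smallest p among genes called in all 7 fits, with a fold change within 1.5-fold when 1 library is left out and more than 3 counts in the lower group. Outside the lists, the 10 largest log2 fold changes per direction with a mean of at least 10 CPM, and for each of the 5 symbol families per direction the 2 smallest p, meet the same conditions. Alternatives were RLE size factors, unscaled library totals, DESeq2 1.42.0, a block on the replicate number, dropping each library, the count filter or the mitochondrially encoded genes, and a test against a 1.5-fold change. RefSeq promoters were matched by symbol, 1 per gene. A few named genes are not reported here.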

Additional observations from a re-analysis of the deposited data

How the results depend on the processing

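The 3634 genes that passed with 6 libraries ran from 1892 to 3610 when 1 library was left out, the higher ones from 762 to 1503 and the lower ones from 1130 to 2107. All 3 lowest values came without TOM negative replicate 2, and without TOM positive replicate 1 the higher genes were 1034. The test against a 1.5-fold change gave 2177 genes, of which 1305 were lower. Among genes called in every fit, DESeq2 gave 3139 (1402 higher and 1737 lower), and unscaled library totals gave 1025 higher. Of the 1783 called genes, 1742 were also called with RLE size factors, 1564 without scaling factors, 1451 without a count filter and 1678 by DESeq2, with 0 of opposite sign in each. Counting error limits the low genes, Mc4r first.

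With the replicate number as a block, 1987 genes passed, 899 higher and 1088 lower. The labels do not say whether equal numbers mean shared animals. Same-numbered libraries had correlations of their deviations from the group means of -0.03, -0.01 and 0.02. TOM positive replicates 1 and 2 correlated best with a TOM negative library of another number, and replicate 3 with that of its own number. Correlations this small, from 3 libraries per sort, cannot decide whether the libraries were paired. Of 184 named genes, 3 no longer passed with the block and 4 no longer passed the test against a 1.5-fold change.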

Other observations

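Gene families were also read from symbols alone, by grouping genes that share the letters before the first digit. Of 91 such families with at least 15 tested members, the kinesins (Kif) had the largest share called higher, 6 of 25 genes (24%) against 4.41% of all genes tested, also 6 without scaling factors. The interleukin and interleukin receptor symbols (Il) had the largest share called lower, 13 of 37 genes (35.1%) against 7.3% of all genes tested. Next came the symbols that begin with P before a digit, which include the P2ry receptors, with 6 of 18 (33.3%), and then the Cd surface antigens with 20 of 64 (31.2%), or 5 and 18 without scaling factors. Zinc finger genes of the symbol Zfp, which had 328 tested members, gave 15 higher (4.57%) and 4 lower (1.22%), the first near the 4.41% of all genes tested. Members of a family are not independent of each other.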
